A study of Mus musculus with 12 samples.

Results

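Chaperone genes were followed across 12 single cultured c-Kit+ cardiac progenitor cells (CPCs). A gene was taken as a member when its symbol began with Hsp90, with Hspa, Hspb, Hspd, Hspe or Hsph and a digit, or with Dnaja, Dnajb or Dnajc and a digit, when it was a Cct subunit symbol, or when it was Tcp1, Bag3 or Hsf1. The rule found 83 of the 21729 genes in the count table. The rule itself reads names and no measured value. By known role, 7 were set down as heat-inducible, 9 as constitutive in the cytosol, 11 as resident in the endoplasmic reticulum (ER), 9 as mitochondrial, 8 as subunits of the CCT ring, 18 as expressed mainly in restricted tissues and 1 as the regulator Hsf1, and 20 were left as other members.

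The cells came from hearts of 12-week-old female FVB mice, from which myocytes were removed before magnetic selection of lineage-negative, c-Kit+ cells. The study pooled cells from 2 hearts per preparation, grew them on gelatin in medium with serum, leukemia inhibitory factor, basic fibroblast growth factor and epidermal growth factor, passaged them 5 times, and picked trypsinised cells by pipette for Smart-Seq libraries of polyA RNA. All 12 cells carried this same treatment, and there was no heat-shocked, untreated or freshly isolated group. The labels tie no cell to an animal or a culture dish, so the 12 cells count as 1 sample and no test was made: the values below describe these cells, and SDs are over cells.

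Total counts ran from 3453708 to 5690184 per cell, and 10022 to 11950 genes had at least 1 count. Values are given as counts per 1000000 counts of the cell (CPM), in which 3 counts correspond to 0.527 to 0.869 CPM. Kit, the gene of the receptor used for the sort, had counts in 1 cell only, cell 10, at 3.94 CPM. That cell stood apart: the sum of 8 endothelial marker genes was 10097 CPM there and at most 64.6 CPM elsewhere, while of 8 fibroblast markers Col1a1, Col1a2 and Col3a1 were lowest there and Pdgfra, at 175 CPM, was second highest. Although the labels give female mice, the Y-linked genes Ddx3y, Eif2s3y, Kdm5d and Uty had counts in all 12 cells, with a summed median of 172 CPM, and the origin of these counts was not tested. The cardiomyocyte genes Myh6, Myh7, Actc1, Actn2 and Ryr2 had no counts in any cell. Results that rest on cell 10, or on cells 3, 4, 6, 9 or 12 with an extreme value, are named as they come.

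Chaperones bind unfolded or partly folded proteins and keep them from clumping. Hsp70 proteins (the Hspa genes) work in cycles with J-domain partners (the Dnaj genes) that deliver clients and stimulate the ATPase, Hsp90 acts on nearly folded kinases and receptors, small heat shock proteins (the Hspb genes) hold unfolded proteins without ATP, and the CCT ring folds actin and tubulin inside a closed chamber. Heat and other protein-damaging stress act through heat shock factor 1, which raises the inducible members, while unfolded protein inside the ER raises a separate set through the unfolded protein response.

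Most chaperone genes were counted in every cell. Of the 83 members, 63 had at least 1 count in all 12 cells, 15 in some cells and 5 in none, which makes 63 of the 78 counted at all. In the whole table, 53.1% of the genes counted in any cell were counted in all 12. The 5 without a count were Dnajc5b, Dnajc5g, Dnajb7 and Dnajb8, from the restricted-tissue class, and Dnajc22. Among the 18 restricted-tissue members, 14 were counted in at least 1 cell and 3 in every cell. Members passing a filter of a mean of 5 CPM and counts in at least 3 cells numbered 64, and 19 did not pass. Together the members took a median of 1.71% of a cell's counts, from 1.53% in cell 6 to 2.31% in cell 9.

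Per unit of transcript length (the TPM scale, with length taken as the union of annotated exons), the 5 highest members by median cell were Hsp90ab1 at 1782, Hsp90aa1 at 985, Cct8 at 783, Hspa8 at 742 and Hspe1 at 733 TPM. Hsp90ab1 and Hsp90aa1 encode the constitutive and the inducible cytosolic Hsp90, Hspa8 the constitutive Hsp70 (Hsc70), Cct8 a ring subunit and Hspe1 the lid of the mitochondrial chaperonin. The union of exons can be much longer than the longest coding transcript. It was 4301 against 2394 bases for Hspa8, 1474 against 774 for Hspe1 and 3931 against 3281 for Hsp90aa1. This order and the ratios per unit of length below depend on that choice, and no other length was tried. Copies elsewhere in the genome bear on such comparisons, since the study kept only reads with a unique place in the genome. Of all 75-base stretches in the longest coding transcript, the part also found in transcripts of another annotated gene was 68.6% for Hspa8, 53.1% for Hsp90aa1 and 47.3% for Hspb1, against 0.736% for Hsp90ab1. How much of each gene's level was lost in this way was not tested.

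Cell-to-cell spread was set against genes of like abundance. For each gene the log10 of the squared coefficient of variation (CV) of CPM was taken minus the running median over genes of neighbouring mean CPM, so that a residual of 0 is typical. The middle 50% of all genes that passed the filter lay between -0.19 and 0.22, and 49.8% of them were above 0. Of the 64 members that passed, 30 were above 0, and their median was -0.02. The chaperone genes thus lay on either side of the typical spread for their level, as genes at large did. A highest cell of at least 4 times the median cell was found in 3 members, Hspb1 at 5.98, Hspa12a at 8.43 and Hspb7 at 14.3 times, against 17.8% of the 9701 genes passing the filter. Hspa12a passed the filter narrowly, at a mean of 5.27 CPM, and had its highest value, 24.8 CPM, in cell 10. Its median was 2.94 CPM, with no count in cells 7 and 12. Without cell 10, 2 members reached the limit. The members just below that limit were Hspa2 at 3.74 and Dnaja4 at 3.47 times, the latter with 51.5% of its 75-base stretches shared with Wdr61. With cells 3 and 10 left out, the count was 1.

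**Figure D1:**
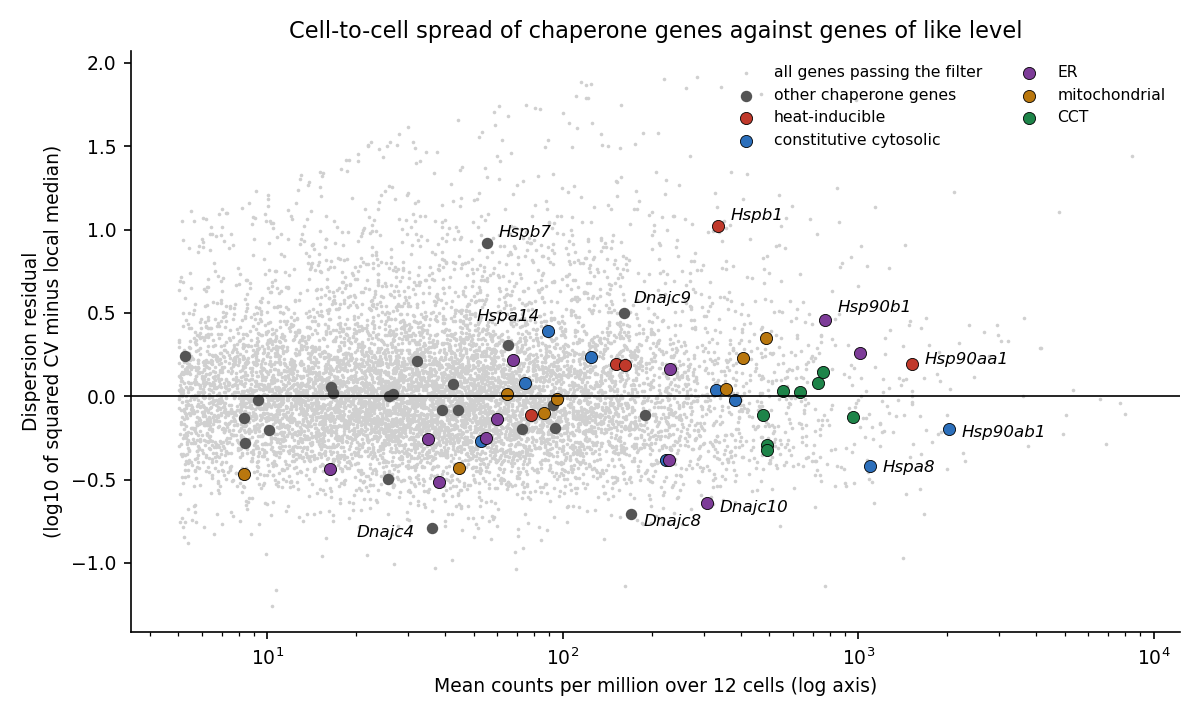
Mean CPM over the 12 cells (log axis) against the dispersion residual, in log10 units, for all genes passing the filter (grey) and for chaperone genes by class (coloured; the remaining members dark grey). The members scatter on either side of 0; Hspb1 at 1.02 and Hspb7 at 0.92 are the highest and Dnajc4 at -0.79 the lowest.

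Inducible and constitutive cytosolic members were then compared over all 12 cells. The 5 heat-inducible members that passed the filter had a median residual of 0.19, with 4 of 5 above 0, and the 9 constitutive members a median of -0.02, with 4 of 9 above 0. For a wider inducible list of 14 genes, 12 of which passed, the median residual was 0.06, with 7 of 12 above 0. The difference between the classes depended on single cells: the inducible and constitutive medians were 0.10 and 0.05 without cell 10, 0.19 and 0.14 without cells 3 and 10, and 0.24 and -0.18 without cell 9. Their median CVs were 48.1% and 37.4%, against 55.7% for all genes. Summed over each class, heat-inducible members ran from 869 CPM in cell 10 through a median of 2143 to 3947 CPM in cell 4 (2249 ± 907, SD, 12 cells; CV 40.3%, and 35.2% without cell 10). The constitutive sum ran from 3350 CPM in cell 6 through 4149 to 6288 CPM in cell 9 (4394 ± 808; CV 18.4%). The inducible sum thus spanned 4.54-fold and the constitutive sum 1.88-fold. Per unit of length, the ratio of the inducible to the constitutive sum was lowest in cell 10 at 0.171 and highest in cell 3 at 1.97, with a median of 0.629. It was above 1 in 3 cells (3, 4 and 6), and next to lowest in cell 12 at 0.280. With the wider list, which takes in Hspa8 and Dnaja1, the CV of the inducible sum was 22.7% and the median log2 ratio of the CPM sums was 0.66 in place of -1.08 when these genes were also taken out of the constitutive sum, and 0.0524 when that sum was left as it was. Without Hsp90aa1 the ratio was -2.76.

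**Figure D2:**
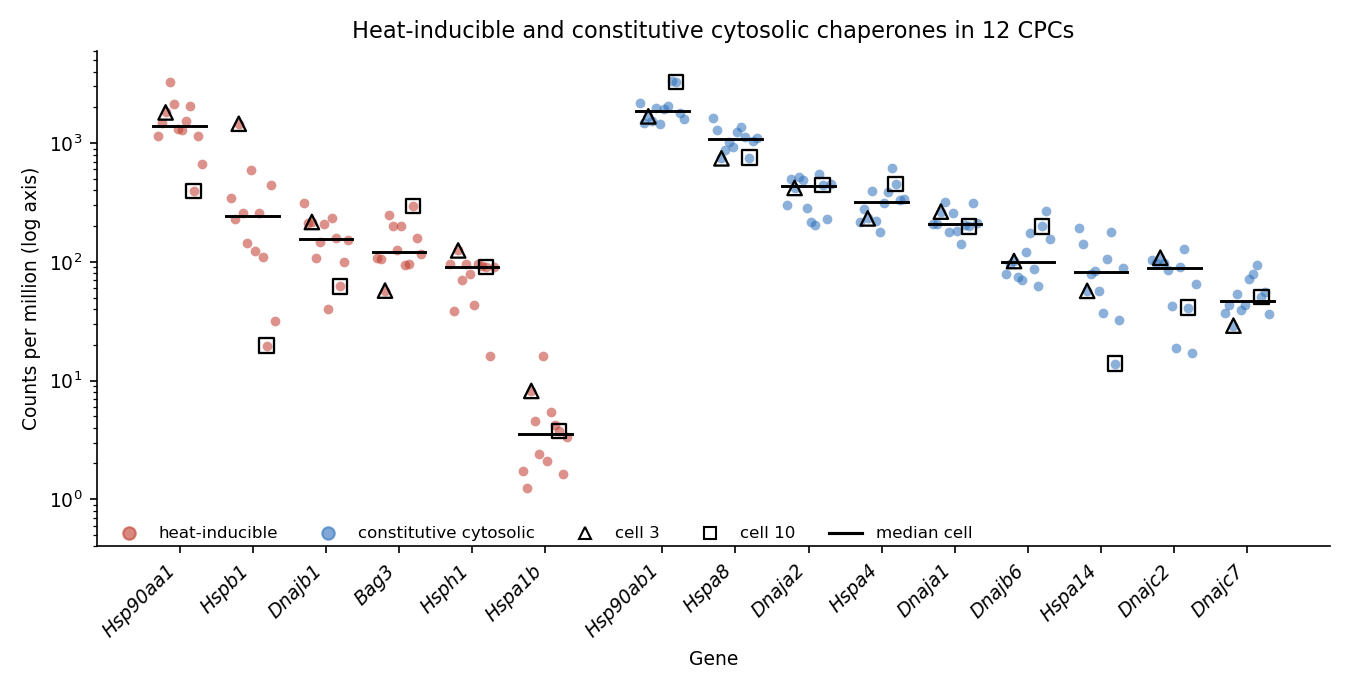
CPM (log axis) in each of the 12 cells for the 6 heat-inducible members counted in every cell (red) and the 9 constitutive cytosolic members (blue), with the median cell as a bar and cells 3 and 10 marked. Hspb1 spreads from 19.7 to 1456 CPM and Hspa1b stays below 16 CPM, while Hspa8 keeps between 744 and 1621 CPM.

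In CPM, much of the inducible sum was Hsp90aa1, whose share of it was 0.456 in cell 10 to 0.825 in cell 4. Per unit of length, Hspb1 was above Hsp90aa1 in cells 1, 3, 6 and 11. Hspb1 had 3581 against 1169 TPM in cell 3 and 1598 against 922 TPM in cell 6. Hsp90aa1 (chr12:110690605-110702728, minus strand; GRCm38) had 396 CPM in the lowest cell, 10, a median of 1392 and 3258 CPM in the highest, cell 4 (1519 ± 746). Hsp90ab1 (chr17:45567775-45573271, minus strand) had 1436 CPM in cell 6, a median of 1877 and 3326 CPM in cell 9, with 3262 CPM in cell 10 (2022 ± 639). Per unit of length, cell 10 had the lowest Hsp90aa1 to Hsp90ab1 ratio at 0.0926, followed by cell 12 at 0.317, and cell 4 the highest at 1.63, which makes a 17.6-fold span. On that scale the ratio was above 1 in cell 4 alone, and in CPM it was above 1 in 3 cells, at 1.08 in cell 3, 2.14 in cell 4 and 1.09 in cell 5. In CPM, the sum of the genes spanned less, with 2274 in cell 12 as the lowest and 5373 in cell 9 as the highest (3541 ± 867; CV 24.5%, against 49.2% for Hsp90aa1 and 31.6% for Hsp90ab1 alone). Across the 12 cells, which share the scaling to a total, Pearson's r of log2(CPM + 1) between them was -0.32, Spearman's rho -0.10, and r -0.10 once cells 9 and 10 were left out, so the negative value rested on those cells.

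**Figure D3:**
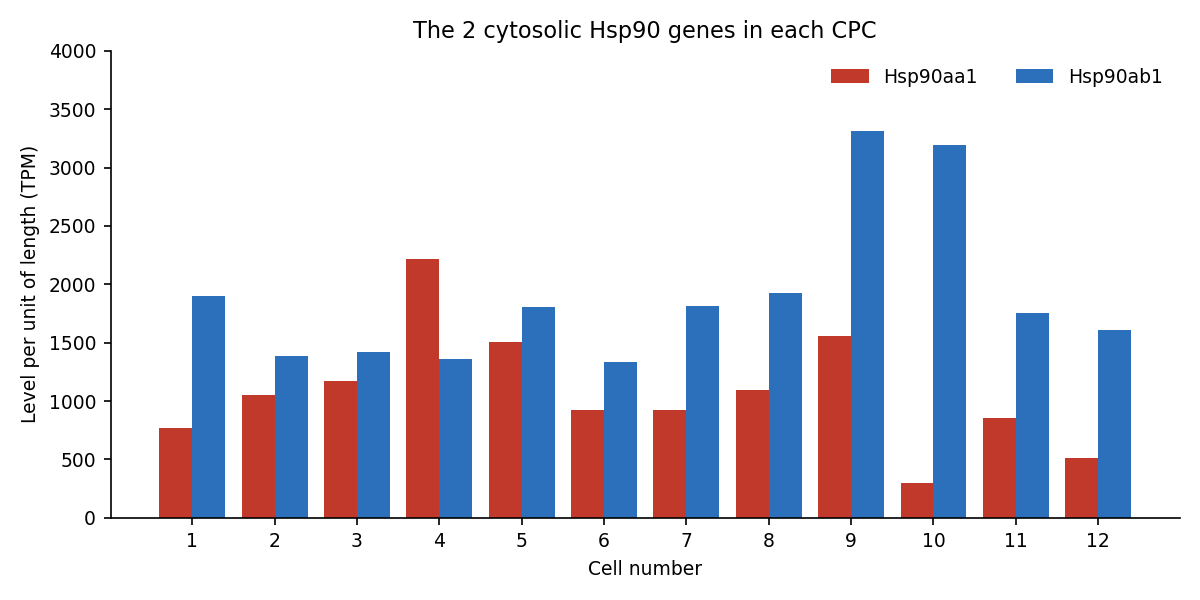
Level per unit of length (TPM) of Hsp90aa1 (red) and Hsp90ab1 (blue) in each of the 12 CPCs. Hsp90aa1 is the higher bar in cell 4 only, at 2219 against 1358 TPM, and cell 10 has the widest gap, with 296 against 3194 TPM.

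The small heat shock protein gene Hspb1 (Hsp27 in human; chr5:135887919-135889563, plus strand) had the largest residual of the 64 members that passed the filter. It had 19.7 CPM in cell 10, a median of 244 and 1456 CPM in cell 3 (334 ± 391), a 73.9-fold span with a residual of 1.02. Only cell 12, at 31.6 CPM, was near the low value of cell 10, and the second highest was cell 6 at 592 CPM. Cryab, a small heat shock protein gene whose name falls outside the rule, was also highest in cell 3 and lowest in cell 10, at 12660 and 50.3 CPM with a second highest of 2573 CPM. Per unit of length Hspb1 exceeded Hspa8 in 4 of 12 cells, by up to 8.16 times in cell 3, and its median ratio to Hspa8 was 0.766.

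The stress-inducible Hsp70 genes had few counts. Hspa1a (chr17:34969190-34972156) had 19 counts over 6 cells. Hspa1b (chr17:34956436-34959238), its neighbour 9951 bases away on the same strand, had 242 counts in all, at 1.23 CPM in cell 2, a median of 3.55 and 15.9 CPM in cell 6. The genes share 52.7% of the 75-base stretches of Hspa1a and 55.8% of those of Hspa1b, and their levels are uncertain for that reason. Per unit of length, Hspa1b had 0.00147 to 0.0262 of the level of Hspa8, with a median of 0.00518. No highest cell can be named for Hspa1a, which had 5 counts in cell 6 and 5 in cell 10. Cell 6, where Hspa1b was highest, also had the highest Fos, an immediate early gene, at 1318 CPM against at most 34.4 CPM in any other cell. Of the other immediate early genes listed, Fosb and Atf3 were highest in cell 6 and Jun, Junb, Egr1, Ier2 and Ier3 elsewhere.

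The remaining heat-inducible members kept to narrower ranges than Hspb1. Dnajb1, the J-domain partner of Hspa1, ran from 40.1 CPM in cell 7 through 155 to 311 CPM in cell 1 (163 ± 78.3). Bag3, which links Hsp70 to small heat shock proteins and autophagy, ran from 57.2 CPM in cell 3 through 121 to 297 CPM in cell 10 (151 ± 71.7). Hsph1, an Hsp110 that exchanges nucleotide on Hsp70, ran from 16.1 CPM in cell 11 through 90.6 to 125 CPM in cell 3 (77.8 ± 30.8), and was the only one of the 5 with a residual below 0, at -0.11. Bag3 was highest in the cell where Hspb1 and Hsp90aa1 were lowest, so not all inducible members moved together: over their 10 pairs the median r of log2(CPM + 1) was -0.03, against 0.03 over all pairs of genes. The pairs ran from -0.74 to 0.60, and 10% were above 0.5, against 7.99% of all pairs of genes. Among the positive ones, r was 0.50 for Hspb1 and Dnajb1 (0.25 without cells 7 and 10) and 0.38 for Hsph1 and Dnajb1 (0.50 without the same cells). Hsf1, the factor that drives these genes under heat, was counted in every cell, from 37.1 CPM in cell 4 through 64.7 to 130 CPM in cell 10 (73.0 ± 27.4), with cell 8 next at 106 CPM. It was thus lowest in the cell with the highest inducible sum and highest in the cell with the lowest. Other cells did not all follow this order. Cell 12, with the second lowest inducible sum at 1063 CPM, had Hsf1 below its median, at 53.8 CPM. In cell 9 both were above their medians, at 2507 CPM for the sum and 91.4 CPM for Hsf1.

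Heat shock elements are built from inverted GAA units, and stretches of that kind are shown here because heat shock factor 1 binds such units. RefSeq promoter windows (GRCm38.p6) were found for 67 of the 83 members, 6 of the 7 heat-inducible ones, Hsp90aa1 being the one without. In the 250 bases before the start, GAANNTTC or its outward form TTCNNGAA, each of which reads the same on either strand, was found in 4 of 6 heat-inducible, 2 of 6 constitutive, 1 of 10 ER, 2 of 6 mitochondrial and 2 of 7 CCT promoters, and in 14.5% of the 27025 genes with a window. Capitals mark the match, and each line runs 5′ to 3′ on the strand of the gene:
Hspa1a, chr17:34972248-34972265: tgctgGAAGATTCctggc
Hspa1b, chr17:34959330-34959347: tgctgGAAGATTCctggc
Hspb1, chr5:135887797-135887814: caagaGAAGTTTCcagat
Hspb1, chr5:135887817-135887834: gggcaGAACCTTCctggc
Hsph1, chr5:149636357-149636374: aatctTTCTCGAAggctc
The lines for Hspa1a and Hspa1b are identical, with the match 104 bases before each start, and belong to the inducible members with the fewest counts. Hspb1, with the largest residual, has a match on 2 lines. The Hsph1 line lies in an untranslated exon of another Hsph1 transcript, and the rest overlap no annotated exon. Bag3 and Dnajb1 held no match in this window. A match is a string of letters and not a bound site.

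Constitutive members were led by Hsp90ab1 and Hspa8. Hspa8 ran from 744 CPM in cell 3 through 1076 to 1621 CPM in cell 1 (1093 ± 257), with a CV of 23.6% and a residual of -0.42. Its J-domain partners Dnaja1 and Dnaja2 had 224 ± 53.8 and 383 ± 129 CPM, and Hspa4, an Hsp110 relative of Hsph1, had 331 ± 124 CPM and peaked at 622 CPM in cell 9. Dnajb6, which blocks aggregation and shares 39.5% of its 75-base stretches with other genes, had 124 ± 63.3 CPM with its highest value, 269 CPM, in cell 11, and Dnajc7, a bridge between Hsp70 and Hsp90, had 52.8 ± 19.8 CPM. Of the 9 constitutive members, 5 were highest in cell 9, as were 13.3% of all genes that passed the filter.

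The widest constitutive member was Hspa14, with a residual of 0.39. It is the ribosome-associated Hsp70 whose partner is Dnajc2, and other gene models share 14.4% of its 75-base stretches. Hspa14 ran from 13.9 CPM in cell 10 through 81.6 to 193 CPM in cell 1, and Dnajc2 from 17.1 CPM in cell 11 through 88.0 to 128 CPM in cell 9. Over the 12 cells, r between these partners was 0.73 and 0.76 without cells 7 and 11. Dnajc9, a J-domain protein that handles histones H3 and H4, ran from 31.0 CPM in cell 11 through 138 to 349 CPM in cell 1 (residual 0.50), and its r with Hspa14 was 0.79 (0.74 without cells 7 and 11). Cells 7, 10 and 11, where Dnajc2 and Hspa14 were lowest, were among the 5 cells with the fewest genes counted. Those 5 cells had the largest totals, at least 5258541 counts, against at most 5025517 in any other cell. The part of gene number or total in these values was not tested.

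ER chaperones formed a different pattern. Hspa5 (BiP, the main Hsp70 of the ER; chr2:34771970-34777547) ran from 438 CPM in cell 1 through 932 to 2101 CPM in cell 10 (1016 ± 520), with cell 11 next at 1604 CPM. Hsp90b1 (Grp94, the ER Hsp90; chr10:86690209-86705509) ran from 361 CPM in cell 1 through 600.5 to 2044 CPM in cell 12 (774 ± 460), with a residual of 0.45. The lowest cell was the same for both and cells 10, 11 and 12 were high in both, with r of 0.78 over 12 cells and 0.79 without cells 11 and 12. Their ratio kept within a 3.11-fold span, against 17.6-fold for the cytosolic Hsp90 pair.

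Among the J-domain partners of BiP, Dnajb11 ran from 114 CPM in cell 5 through 228 to 498 CPM in cell 10, and its r with Hspa5 was 0.69 (0.58 without cells 5 and 10). Dnajc3, which also restrains the kinase Perk, had 229 ± 55.3 CPM and was highest in cell 12. Dnajb9, which represses the sensor Ire1, ran from 17.6 CPM in cell 8 through 61.4 to 133 CPM in cell 3. Dnajc10, a J-domain disulfide reductase, was the steadiest of the class, between 225 and 377 CPM (307 ± 53.0; CV 17.3%, residual -0.64). These 6 genes, the ones known to rise in the unfolded protein response, had a median residual of 0.19, with 4 of 6 above 0, and a median r of 0.42 over their 15 pairs (0.38 without cell 9). The remaining ER members, Hspa13, which is an Hsp70 of the microsome, and the membrane-bound or luminal J-domain proteins Dnajb12, Dnajb14, Dnajc1 and Dnajc25, lay between means of 16.3 and 59.7 CPM, each with a residual below 0. All 11 ER members together had a median residual of -0.25, with 4 of 11 above 0, and a median r of 0.24 over 55 pairs.

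The ER sum ran from 1805 CPM in cell 9 through 2543 to 4728 CPM in cell 12 (2829 ± 1025). It moved with 13 further ER folding genes outside the rule, such as the disulfide isomerases P4hb and Pdia3 and the lectin chaperone Calr: r between the sums was 0.87, rho 0.85, and r 0.87 without cells 5 and 12. Against 7 genes of the cell cycle that the study used (Cdk1, Ccnb2, Cenpe, Cenpf, Cenpa, Aurkb and Aurka), r was -0.63, falling in size to -0.46 without cells 9 and 11. Against the heat-inducible sum r was -0.71 and rho -0.64, with r at -0.30 without cells 10 and 12, so the size of r rested in part on those cells. The 5 cells with 10022 to 10181 genes counted (7, 8, 10, 11 and 12) had ER sums of 2386 to 4728 CPM and the 7 with 11216 to 11950 genes 1805 to 3207 CPM, with heat-inducible sums of 869 to 2216 and 2015 to 3947 CPM. The 5 cells with fewer genes also had the largest totals, at least 5258541 counts, against at most 5025517 in the other 7. Gene number and total therefore cannot be told apart here. These sets of cells are not groups of the study, the ranges overlap, and the part of gene number or total in these values was not tested. Fibroblast marker sums were highest in cell 12, at 6275 CPM, and lowest in cell 10, at 189 CPM, so cells with a high ER sum lay at opposite ends of that list.

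**Figure D4:**
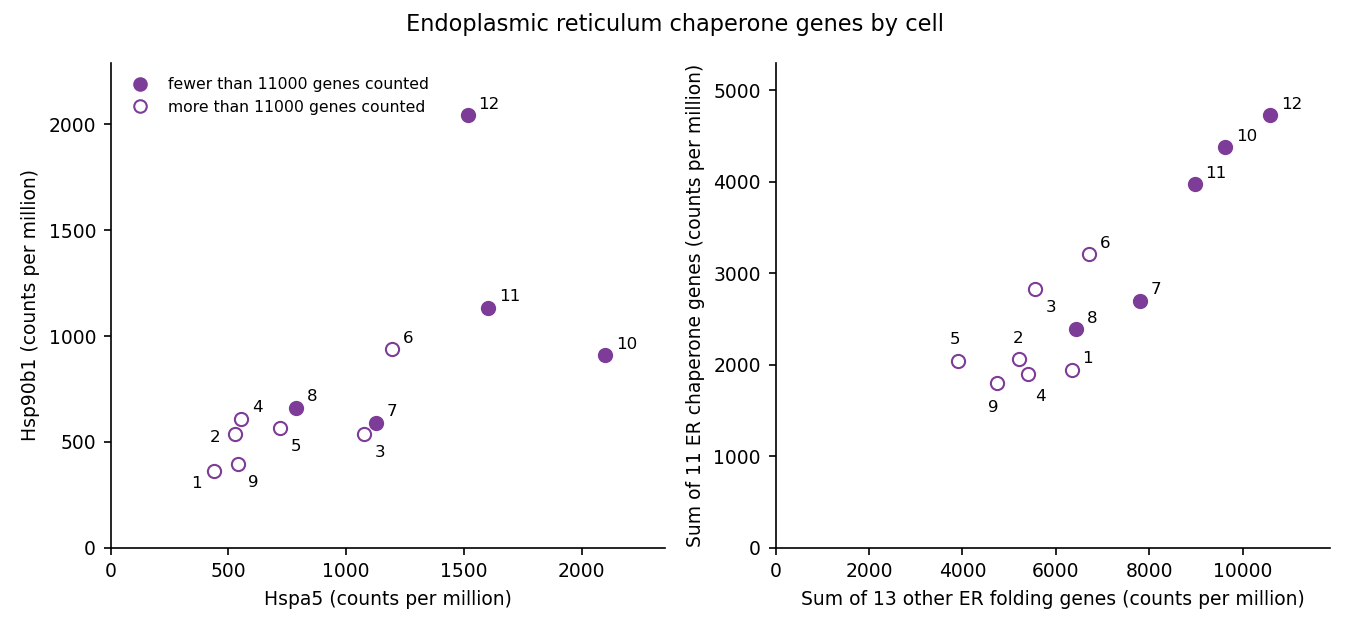
Left, Hspa5 against Hsp90b1 in CPM, with 1 point per cell and its number; right, the summed CPM of 13 ER folding genes outside the rule against the sum of the 11 ER chaperones. Cells 10, 11 and 12 lie at the upper right of the right panel with ER sums of 3971 to 4728 CPM; filled points are the 5 cells with fewer genes counted.

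The unfolded protein response acts in part through the ER stress element CCAAT, 9 bases, CCACG, and its matches are shown because factors of that response bind it. In the 250 bases before the start, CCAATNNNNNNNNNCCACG or its reverse complement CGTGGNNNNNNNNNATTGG was found in 3 of 10 ER members with a window (3 of the 6 stress-inducible ones), in no heat-inducible, constitutive, mitochondrial or CCT member, and in 0.13% of all 27025 genes. Hsp90b1 held a match in each direction, shown on the strand of the gene:
Hspa5, chr2:34772020-34772048: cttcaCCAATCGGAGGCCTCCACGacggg
Hsp90b1, chr10:86705633-86705661: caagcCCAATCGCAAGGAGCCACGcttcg
Hsp90b1, chr10:86705528-86705556: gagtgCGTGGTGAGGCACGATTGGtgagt
Dnajc3, chr14:118937822-118937850: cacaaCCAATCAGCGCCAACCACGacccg
The Hspa5 line lies in an untranslated exon of an annotated Hspa5 transcript, and the rest overlap no exon. Dnajb9 and Dnajb11 held no match in their windows. Among 7 regulators of the response, the transcription factor Xbp1 was highest in cell 10 (466 CPM, lowest 78.0 CPM in cell 3), as Hspa5 was, whereas Ddit3, the factor Chop, was lowest in cell 10 at 5.07 CPM and highest in cell 3 at 276 CPM. Ddit3 was nearly as high in cell 6, at 274 CPM, which also had the second highest Xbp1, at 302 CPM. Atf6 and Eif2ak3, sensors of the response, were highest in cell 10 as well, at 131 and 43.9 CPM. The other regulators peaked elsewhere. The third sensor, Ern1, was highest in cell 3 at 33.0 CPM and had 11.1 CPM in cell 10, near its median of 11.7. Atf4, a transcription factor of the response, was highest in cell 9 at 492 CPM, and Ppp1r15a, the phosphatase subunit Gadd34, in cell 7 at 377 CPM. Thus 3 of the 7 had their highest value in cell 10, as did 12.2% of all genes that passed the filter.

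Mitochondrial members centred on the chaperonin pair. Hspd1 (Hsp60) ran from 132 CPM in cell 6 through 366 to 582 CPM in cell 9 (356 ± 134), and its lid Hspe1 (Hsp10) from 183 CPM in cell 10 through 374 to 774 CPM in cell 3 (407 ± 182). Per unit of length Hspe1 was above Hspd1 in 12 of 12 cells, with a median ratio of 1.72 and a range of 1.02 in cell 10 to 4.86 in cell 5. Shared stretches with other annotated genes, 33.7% for Hspd1 and 29.1% for Hspe1, bear on that ratio. Across cells r between them was 0.49, and 0.60 without cells 3 and 10, so the partners were high together in some cells and not in others. The genes lie head to head. The annotated start of Hspd1 on the minus strand is base 55088243 of chromosome 1 and that of Hspe1 on the plus strand is base 55088132, so the gene models overlap by 112 bases. They share a stretch with 2 overlapping matches of the 3-unit form GAANNTTCNNGAA (reverse complement TTCNNGAANNTTC), each of which also holds the 2-unit form. The 3-unit form was in 0.514% of all promoters, in none of the 6 heat-inducible ones and in 1 of the 6 constitutive ones, that of Dnajb6. The stretch lies in an untranslated exon of an Hspd1 transcript and is shown, because the partners share it, on the strand of Hspe1:
Hspe1 and Hspd1, chr1:55088054-55088081: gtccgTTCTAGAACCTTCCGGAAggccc

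Hspa9 (mortalin, the Hsp70 of the matrix) had 486 ± 252 CPM, with 158 CPM in cells 6 and 10, a median of 449 and 802 CPM in cell 12. Dnaja3, its J-domain partner, had 64.6 ± 31.0 CPM and was highest in cell 9. Dnajc15 and Dnajc19, of the import motor at the inner membrane, had 86.1 ± 32.5 and 95.9 ± 42.1 CPM and were both highest in cell 5. Dnajc11, of the cristae-organising complex, had 44.5 ± 13.5 CPM, Dnajc30 8.36 ± 4.24 CPM, and Dnajc28 was counted in 7 cells only. The mitochondrial sum was lowest in cell 6 at 797 CPM and highest in cell 9 at 2319 CPM (1551 ± 469).

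CCT subunits, which assemble into paired rings of 8 different proteins, were mostly high in the same cell, cell 9. The lowest and highest means were 476 ± 144 CPM for Cct3 and 961 ± 299 CPM for Cct8. Over their 28 pairs the median r of log2(CPM + 1) was 0.52, against 0.03 over all pairs of genes passing the filter and 0.04 among 217 genes at the mean CPM of the subunits. Of the pairs, 60.7% were above 0.5, against 7.99% and 10.4%. Genes are not independent replicates, and the cells share the scaling to a total. Much of this was 1 cell: without cell 9 the median r of the subunits was 0.22, with 0.02 for all genes. In cell 9, the 8 subunits averaged 1.74 times their own means, with Cct7 the highest at 2.09 and Cct6a the lowest, and 7 of 8 had their highest value there. The exception was Cct8, with 1486 CPM in cell 3 and 1455 CPM in cell 9.

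**Figure D5:**
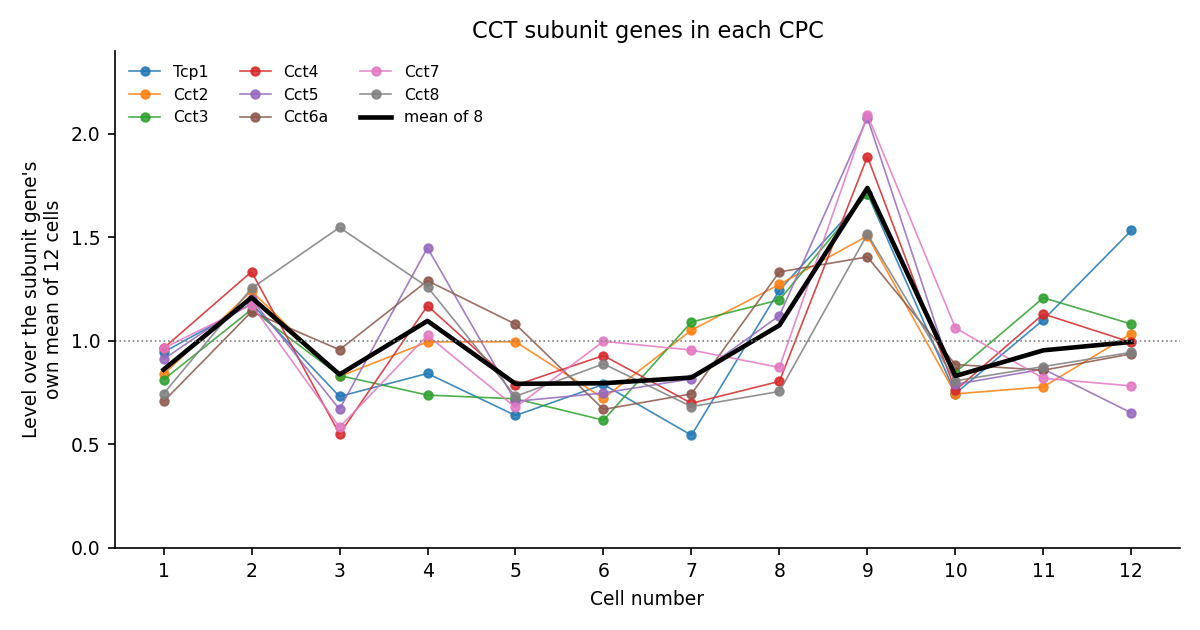
Level of each of the 8 CCT subunit genes in each cell over its own mean of the 12 cells (coloured), and the mean of the 8 (black); cells have no order and the lines only join a gene's points. In cell 9 the mean of the 8 is 1.74 and each subunit lies above 1, and Cct8 alone lies above 1 in cell 3.

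Agreement among subunits was not complete in other cells. In cell 3 Cct8 was at 1.55 of its mean and Cct4 at 0.55, and in cell 12 Tcp1 (the subunit alpha) was at 1.53 and Cct5 at 0.65. Tcp1 shares 21.1% of its 75-base stretches with the annotated transcripts of Acat3, and reads of such stretches may not be told apart. Cell 2 was the most even, with subunits between 1.14 and 1.33. Cct5 had the highest median r to its fellow subunits, 0.68, and Cct8 the lowest, 0.39. Prefoldin, the hexamer that hands actin and tubulin to CCT, did not follow it: r between the sums of 6 prefoldin subunits and of CCT was 0.05, and -0.27 without cells 4 and 10. As single genes the subunits had residuals from -0.32 for Cct2 to 0.14 for Cct5, with a median of -0.04, and -0.27 without cell 9.

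Cell 9 held the highest value of 15 of the 64 members that passed the filter, 23.4%, against 13.3% of all such genes, and 7 of the 15 were CCT subunits. The others, which included Hsp90ab1, Hspa4, Dnaja2, Hspd1 and Dnaja3, were 8 of 56 members, or 14.3%, near the share of all genes. Of 14 genes outside the rule, most of them co-chaperones and with Cryab, the transcription factor gene Hsf2 and the mitochondrial Hsp90 gene Trap1 listed with them, 6 were highest there, including the Hsp70 to Hsp90 adaptor Stip1 at 532 CPM, the Hsp90 activator Ahsa1 at 417 CPM and the immunophilin Fkbp4 at 416 CPM. The 7 cell cycle genes were also highest in sum in cell 9, at 3725 CPM, while its ER sum was the lowest of the 12 cells. The part of the cell cycle in these values was not tested. Across the 12 cells, r between the cell cycle sum and the CCT sum was 0.44, and 0.20 without cells 9 and 11.

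Of the 18 restricted-tissue members, 6 passed the filter, and Hspb7 had the largest residual of them. Hspb7, a small heat shock protein of heart and skeletal muscle, had no count in cell 9, a median of 19.5 CPM and 279 CPM in cell 8 (55.2 ± 77.4; residual 0.92), with cell 11 next at 90.2 CPM. In cell 9 a count of 0 allows up to 0.629 CPM. Tnnt2 was the cardiomyocyte marker with any count, found in 10 cells. It reached 59.1 CPM in cell 8, and 86.6 CPM in cell 12, where Hspb7 was 17.0 CPM. At the steady end of the 64 members stood Dnajc4, between 26.8 and 49.6 CPM (residual -0.79), Dnajc8, a splicing-associated member, at 169 ± 29.7 CPM (residual -0.70), Dnajc10, Dnajb12 and Dnajc24, which acts in diphthamide synthesis. Dnajc8 kept between 135 and 236 CPM in all 12 cells.

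Genes of acute stress outside the rule had larger residuals. All 8 immediate early genes listed (Fos, Fosb, Jun, Junb, Egr1, Atf3, Ier2 and Ier3) had residuals above 0, with a median of 0.90, and 7 of 8 had a highest cell of at least 4 times the median. Their sum was lowest in cell 4, at 203 CPM, and highest in cell 6, at 3190 CPM. Between that sum and the heat-inducible chaperone sum r was -0.62 over the 12 cells and -0.54 without cells 4 and 8, and cell 4, the lowest for the former, was the highest for the latter. In cell 6, the highest for the former, the latter was near its median, at 2326 CPM.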

How the data were processed

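Adult mouse CPCs were profiled as 12 single-cell Smart-Seq v4 libraries, sequenced as paired 75-base reads. The authors aligned reads to mm10 with STAR 2.5.2b, kept uniquely mapped reads and deposited raw read counts per gene, with no molecular identifiers; the counting program, annotation and strand setting are not given in the sources used here. Read counts are not independent molecules, and limits of detection cover counting error only. The labels name no animal or culture, so the cells were treated as 1 sample and no test was made.

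Counts were divided by each cell's total over 21729 genes (CPM). Gene lengths and positions came from GENCODE vM21 (21384 symbols matched), promoters from RefSeq. Correlations used log2(CPM + 1). The spread measure was tested on simulated data. Python 3.11.15, numpy 2.4.6, pandas 2.3.3 and matplotlib 3.10.9 were used. The members and gene lists were chosen with earlier results of these data known. Genes were named by rule: every heat-inducible, constitutive, ER, mitochondrial, CCT and regulator member, the 5 largest and 5 smallest residuals, the 5 highest per length, restricted-tissue members by the number of cells with a count, and fixed lists of co-chaperones and related genes, folding, stress, cell cycle and cell type genes. Kit, the Y-linked genes, Hspa2, Hspa12a, Dnaja4 and Dnajc22 were named after their values were seen.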

Additional observations from a re-analysis of the deposited data

How the results depend on the processing

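Over 12 summary values, 73 of 80 alternatives (another scaling, pseudocount, filter, window, list or thinning to equal total counts, and cells left out) left the value within its spread or, for counts and CVs, within 1.5 times, and 7 did not. The spread was the SD over class members for a residual, over pairs for r, and over cells for the ratio and the share. Residuals of heat-inducible members alone ran from -0.11 to 1.02. That limit was wide against the gap between the heat-inducible and constitutive medians, 0.19 and -0.02. Medians of 0.19 and 0.14 without cells 3 and 10 kept within it, so these counts do not show that the gap held. The number of members with a highest cell of at least 4 times the median, 3, became 6 at a limit of 3 times, 7 with the filter at a mean of 1 CPM and 1 with cells 3 and 10 left out. With a wider inducible list of 14 genes, Hspa8 and Dnaja1 among the 7 added and taken out of the constitutive sum, the CV of the inducible sum was 22.71% in place of 40.3% and the median log2 ratio of inducible to constitutive sums 0.66 in place of -1.08. In alternatives chosen after seeing the data, the ratio was 0.0524 with the constitutive sum left as it was and -2.76 without Hsp90aa1. Leaving out each cell in turn, the median CCT residual ran from -0.27, without cell 9, to 0.00568, without cell 11, and the median r of CCT pairs from 0.22, without cell 9, to 0.57. The remaining 142 of 144 values with a cell left out kept within these limits. No paired analysis was possible because the design has 1 group. Low counts limit what can be said of Hspa1a and of the restricted-tissue members that did not pass the filter, and the number of cells limits each range.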
